A study of Homo sapiens with 6 samples.

Results

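The genes that move zinc across human cell membranes, and the small proteins that bind it, were followed in HEK293 cells grown beside cells that release reactive oxygen species (ROS). The set holds the SLC39A family (also called ZIP), the SLC30A family (also called ZnT), the metallothioneins and the zinc-sensing factor MTF1. Members were chosen by gene symbol and then by their read counts: a gene had to have at least 10 reads in at least 3 of the 6 libraries. Of 34 rows with a matching symbol, 23 met that rule, out of 23686 rows in all. They were 11 importers, 8 exporters, 3 metallothioneins and MTF1.

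HEK293 is an established human embryonic kidney line, and all sampled cells were positive for green fluorescent protein (GFP) and were sorted on it. The ROS co-culture group held 3 libraries from GFP-positive cells kept for 10 h with HEK293 cells carrying DAAO, with D-alanine at 25 µM. DAAO commonly stands for an oxidase of D-amino acids that yields hydrogen peroxide. The control group held 3 libraries of sorted GFP-positive cells labelled as wild-type controls. The labels carry the same treatment text for both groups, so they do not show whether the controls had D-alanine or partner cells. They also do not say whether the replicates were separate cultures, so the p-values measure the spread between these libraries, which may be technical.

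Zinc cannot cross membranes unaided. SLC39A proteins bring it into the cytosol from outside the cell or from organelles, and SLC30A proteins take it out of the cytosol, across the plasma membrane or into vesicles, the Golgi and other compartments. Metallothioneins are short, cysteine-rich proteins that hold zinc and copper in the cytosol and release zinc when their thiols are oxidised. When cytosolic zinc rises, MTF1 binds metal response elements in DNA and switches on metallothionein genes and SLC30A1, while SLC39A10 is known as a gene whose transcript goes up when zinc is short.

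Each library held 19091100 to 36250300 reads assigned to genes, to 6 digits. A single read was worth 0.0279 to 0.0521 CPM (counts-per-million, on library sizes scaled by TMM, the trimmed mean of M-values), and a gene with no read may still stand at up to 0.0838 to 0.156 CPM (3 reads), a limit that covers counting error only. All 7 markers of HEK293 cells were present, at 5.79 to 1318 CPM, and summed to 2237 to 2457 CPM in co-culture and 1858 to 1969 CPM in the controls. The 9 markers of blood, endothelial, fibroblast and liver cells summed to 6.14 to 8.07 CPM in co-culture and 10.1 to 12.1 CPM in the controls. Nearly all of that was LUM, at 5.90 to 11.6 CPM, while CD3E and HBB were at 0 in all 6 libraries, and the part of either marker list in the results was not tested. DAO, the human oxidase gene, also had 0 reads everywhere. Co-culture libraries 2 and 3 had few reads on the unexpected strand, with a median share of 0.124% and 0.211% against 1.57% to 1.75% in the other 4. Values from a fit with this strand class as batch are given beside the main results for SLC39A10, SLC39A7, SLC30A1, MT2A, MT1X, MT1F and MTF1.

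Of the 23 members tested, 3 passed an edgeR adjusted p of 0.05, where 4.83% of all 14582 tested genes did. SLC39A10 was the 1 member that rose (background 2.66% of genes higher), and the metallothioneins MT1X and MT2A were the 2 that fell (background 2.17% lower). In bulk RNA, fewer cells with a transcript and less transcript per cell cannot be told apart. The CPM ranges of the groups did not overlap for 10 of the 23 members, against 29.3% of all tested genes. In 7 of these co-culture was lower (background 15.0%) and in 3 it was higher (background 14.3%). The 7 include MT1F, which met the count rule through the controls, so its lower co-culture level is tied to its place in the set. The median absolute log2 fold change was 0.15 over the members and 0.13 over all tested genes. Over all tested genes, 388 were higher and 316 lower. Library sizes without TMM scaling made that 310 and 572, and shifted the median gene by -0.03 on the log2 scale.

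**Figure D1:**
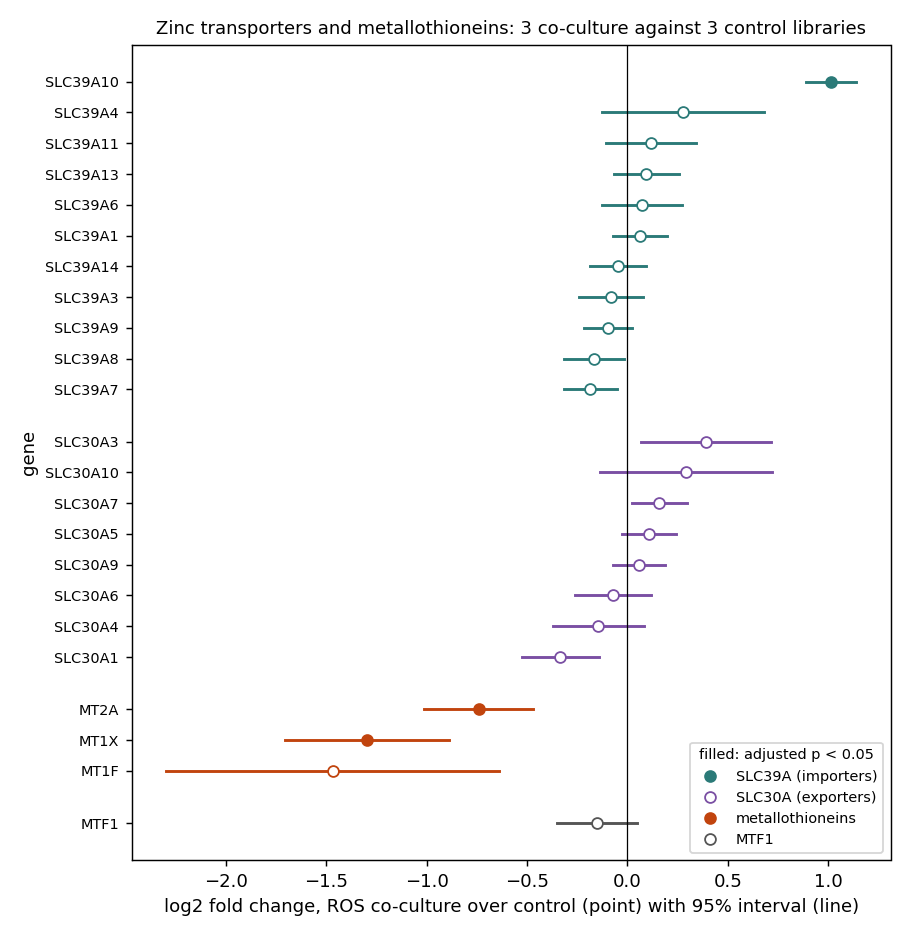
Log2 fold change of each of the 23 members (x axis; point, with its 95% interval as a line), grouped by role on the y axis, from 3 co-culture and 3 control libraries. Filled points passed an adjusted p of 0.05: SLC39A10 stands at 1.01 on the right, MT2A and MT1X at -0.74 and -1.30 on the left, and the other transporters lie between -0.33 and 0.39.

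SLC39A10 (ZIP10) brings zinc in across the plasma membrane. Its level was 216.1, 206.5 and 203.8 CPM in co-culture libraries 1, 2 and 3, and 104.0, 105.1 and 101.1 CPM in controls 1, 2 and 3. Every co-culture library stood near double the level of every control, and the libraries within a group differed little. The means were 208.8 ± 6.46 CPM and 103.4 ± 2.06 CPM (SD, n = 3 each). On the log2 scale the change was 1.01 (SE 0.06, 95% interval 0.89 to 1.14; edgeR adjusted p 2.36e-05). These values rest on 2015 to 7300 reads per library, and 0.935% of reads over the gene lay on the opposite strand.

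Among all 14582 tested genes SLC39A10 had the smallest p-value, and it ranked 1 in each of 15 other settings as well. By size of change it came lower, at rank 31 of the 388 genes that rose. Of these 388, 91 had a mean of at least 100 CPM, and there SLC39A10 ranked 2; the limit of 100 CPM was picked after its value had been seen. Leaving out each library in turn gave log2 fold changes from 0.99 to 1.03. With strand class as batch, a fit that sets co-culture library 1 alone against the controls, it was 1.06 (edgeR adjusted p 0.00235). Per kilobase (kb) of exon, its level went from 18.5 to 37.4 CPM per kb, which moved it from the sixth to the third place among the 11 importers.

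The importers with the highest level per kilobase were SLC39A7 and SLC39A6. SLC39A7 (ZIP7) releases zinc from the endoplasmic reticulum and Golgi. It stood at 219.9, 222.6 and 239.4 CPM in co-culture libraries 1 to 3 and at 252.2, 257.6 and 265.3 CPM in controls 1 to 3. The ranges did not overlap, with co-culture the lower, but the log2 fold change of -0.18 (SE 0.06) did not pass, with an edgeR adjusted p of 0.0996. It passed in 2 of 15 other settings: without control 1 (-0.20, edgeR adjusted p 0.0117) and without TMM scaling (-0.22, edgeR adjusted p 0.0422). In these settings 3069 of 14734 and 882 of 14582 tested genes passed. With strand class as batch the log2 fold change of SLC39A7 was -0.23. In level per kilobase it led in both groups, with 92.5 and 105.2 CPM per kb in co-culture and control.

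SLC39A6 (ZIP6) is a plasma membrane importer and the closest relative of SLC39A10 in the family, with which it is known to pair. Its levels were 236.4, 229.3 and 223.0 CPM in co-culture and 184.3, 231.5 and 238.4 CPM in controls 1 to 3. The groups overlapped, and control 1 was the lowest of all 6. On the log2 scale the difference was 0.07, with a 95% interval of -0.12 to 0.27 (edgeR adjusted p 0.662), an interval that does not reach the change seen for SLC39A10.

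SLC39A8 and SLC39A14, importers that also carry manganese, had log2 fold changes of -0.17 and -0.04. SLC39A8 did not overlap between the groups, at 55.2 to 56.7 CPM in co-culture and 58.4 to 67.0 CPM in the controls (edgeR adjusted p 0.168). It passed in 1 of 15 other settings, without control 1 (-0.22, edgeR adjusted p 0.0147), where 3069 of 14734 tested genes passed. SLC39A9, found on the Golgi and the plasma membrane, was likewise apart in range, at 113.4 to 113.9 against 118.7 to 126.1 CPM (log2 fold change -0.10, edgeR adjusted p 0.305). The plasma membrane importers SLC39A1 and SLC39A3 had log2 fold changes of 0.06 and -0.08, and SLC39A13, which acts on vesicles, had 0.10. SLC39A11 stood at 0.12. SLC39A4, the intestinal importer of dietary zinc, was low, at 2.95 to 4.75 CPM. Its log2 fold change of 0.28 had the widest interval of the importers, -0.13 to 0.68. For these 10 importers beside SLC39A10 the 95% intervals together ran from -0.32 to 0.68, with 5 estimates above 0 and 5 below, and a median of 0.01.

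The remaining importers lay under the count rule. SLC39A2 had 2 to 6 reads per library, SLC39A5 had 2 to 8, and SLC39A12 had 2 reads in co-culture library 1 and 0 in the other 5.

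**Figure D2:**
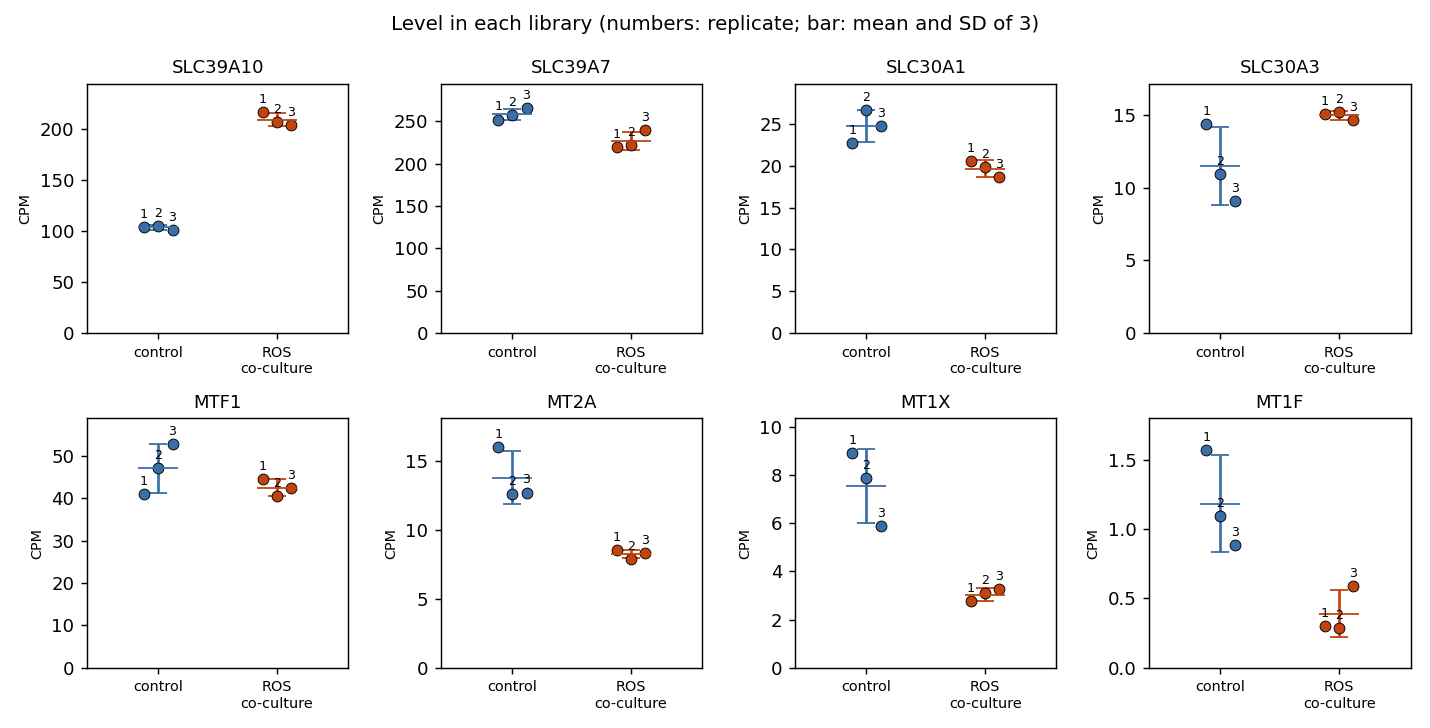
CPM on the y axis in each library for 8 genes, with controls in blue and ROS co-culture in red; points are libraries numbered by replicate, and bars give the mean and SD of 3. SLC39A10 in co-culture sits between 203.8 and 216.1 CPM, above all controls, while MT2A, MT1X and MT1F in co-culture sit below all controls and MTF1 overlaps.

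None of the 8 exporters passed the threshold with edgeR. An unadjusted p under 0.05 was found for 3 of the 8, and for 3377 of the 14582 tested genes. With DESeq2 1 exporter passed, where 1032 of 13732 genes with an adjusted p did. With limma-voom SLC30A1 came to an adjusted p of 0.0504, and 675 of 14582 genes passed. With edgeR the exporters' log2 fold changes ran from -0.33 to 0.39, with 95% intervals between -0.53 and 0.72 and a median of 0.08.

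SLC30A1 (ZnT1) is the zinc exporter of the plasma membrane and a known target of MTF1. It stood at 20.6, 19.8 and 18.6 CPM in co-culture libraries 1 to 3 and at 22.8, 26.7 and 24.8 CPM in controls 1 to 3. All co-culture values were below all control values. The log2 fold change was -0.33 (SE 0.09, 95% interval -0.53 to -0.14), and the edgeR adjusted p of 0.0520 just missed the threshold. In the main fit 704 of 14582 tested genes passed. Without TMM scaling 882 of 14582 did, and without a low-count filter 864 of 19187 did. With DESeq2 it was 1032 of 13732, and without control 1 it was 3069 of 14734. SLC30A1 passed in these 4 of 15 other settings. Its change was -0.37 without TMM scaling (edgeR adjusted p 0.0336) and -0.33 without a low-count filter (edgeR adjusted p 0.0432). With DESeq2 its change was -0.33 (DESeq2 adjusted p 0.0411), and without control 1 it was -0.39 (edgeR adjusted p 0.00283). Its direction was the same in all 15, and the change closest to 0, -0.26, came from the fit with strand class as batch (edgeR adjusted p 0.450).

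SLC30A3 (ZnT3), which loads zinc into synaptic vesicles in neurons, had the largest positive estimate of the exporters. Its levels were 15.1, 15.2 and 14.7 CPM in co-culture and 14.4, 10.9 and 9.09 CPM in controls 1 to 3. The groups did not overlap, but control 1 lay close to the co-culture libraries. The difference was 0.39 on the log2 scale (SE 0.15, edgeR adjusted p 0.144). It passed in 1 of 15 other settings, without control 1 (0.59, edgeR adjusted p 0.000944), where 3069 of 14734 tested genes passed.

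SLC30A5, which works in a pair with SLC30A6 in the early secretory pathway, had the highest exporter level per kilobase, 23.5 and 21.8 CPM per kb in co-culture and control. It stood at 119.4, 121.6 and 115.5 CPM in co-culture and 103.9, 116.2 and 110.7 CPM in the controls, which overlap, with a log2 fold change of 0.11. SLC30A9, a mitochondrial zinc transporter, came next per kilobase, with 111.0, 109.5 and 109.3 CPM in co-culture and 100.8, 111.9 and 104.4 CPM in the controls. Its log2 fold change was 0.06 and the groups overlapped. SLC30A7, of the Golgi, did not overlap, at 77.2 to 83.7 CPM in co-culture and 68.8 to 74.3 CPM in the controls. Its change of 0.16 on the log2 scale did not pass (edgeR adjusted p 0.158).

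SLC30A6, SLC30A4 and SLC30A10 had log2 fold changes of -0.07, -0.14 and 0.29. SLC30A6 passed in 1 of 15 other settings, without control 1, at -0.17 (edgeR adjusted p 0.0478). There 3069 of 14734 tested genes passed, and without control 2 SLC30A6 stood at 0.00. SLC30A10, better known as a manganese exporter, was low, at 3.30 to 5.84 CPM.

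SLC30A2 (ZnT2), a vesicle exporter whose promoter also responds to metals, was the exporter closest to the count rule from below. It had 3, 3 and 5 reads in co-culture libraries 1 to 3 and 10, 14 and 6 reads in controls 1 to 3, so it reached 10 reads in 2 libraries, both controls. Just inside the rule was MT1F, described below, with 10 or more reads in 4 libraries. SLC30A8, the exporter of insulin granules, had 2 reads in control 1 and 0 in the other 5 libraries.

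MT1X and MT2A fell, and the summed metallothionein level in every co-culture library was below that of every control. Summed over all 16 metallothionein rows in the files, the level was 11.6, 11.3 and 12.2 CPM in co-culture libraries 1 to 3 and 26.6, 21.7 and 19.7 CPM in controls 1 to 3. The co-culture mean of 11.7 ± 0.484 CPM was 51.5% of the control mean of 22.6 ± 3.55 CPM (SD, n = 3 each) and the groups did not overlap. The sum is a description only, since these genes were chosen with their values known. Leaving out control 1, the highest, gave 56.4%.

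The sum was carried by few genes. MT2A gave 68.2% to 73.6% of the metallothionein reads in co-culture and 58.2% to 64.5% in the controls. MT1X gave 23.8% to 27.4% and 29.8% to 36.3%, and MT1F gave most of the rest. The ratio of MT1X to MT2A reads was 0.324, 0.392 and 0.393 in co-culture and 0.555, 0.624 and 0.462 in controls 1 to 3. The ratio was lower in all 3 co-culture libraries than in any control. This difference between the genes was not tested, and the 95% intervals of their fold changes, given below, overlap.

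The 250 bases before the annotated start of the metallothioneins that fell, and of SLC30A1, are shown because MTF1 acts there in textbook accounts of zinc induction. They are RefSeq sequences of GRCh38.p14, printed 5′ to 3′ along the gene, with the core of the metal response element in capitals. The letters searched were TGCACNC and TGCGCNC on both strands, forms that differ at 1 letter, and the windows run from 250 bases before to 50 bases after each start.
MT2A, chr16:56608334-56608583, plus strand: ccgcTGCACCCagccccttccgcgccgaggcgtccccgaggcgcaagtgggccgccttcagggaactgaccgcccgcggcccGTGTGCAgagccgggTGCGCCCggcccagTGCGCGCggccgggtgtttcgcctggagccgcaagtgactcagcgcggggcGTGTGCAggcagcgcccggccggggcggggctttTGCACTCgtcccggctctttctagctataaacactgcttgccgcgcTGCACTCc
MT1X, chr16:56682220-56682469, plus strand: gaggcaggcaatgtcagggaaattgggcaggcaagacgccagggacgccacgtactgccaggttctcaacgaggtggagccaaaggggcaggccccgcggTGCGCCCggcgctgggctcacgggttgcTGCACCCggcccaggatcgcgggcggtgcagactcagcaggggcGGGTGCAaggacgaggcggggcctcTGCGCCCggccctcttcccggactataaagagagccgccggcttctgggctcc
SLC30A1, chr1:211579162-211579411, minus strand: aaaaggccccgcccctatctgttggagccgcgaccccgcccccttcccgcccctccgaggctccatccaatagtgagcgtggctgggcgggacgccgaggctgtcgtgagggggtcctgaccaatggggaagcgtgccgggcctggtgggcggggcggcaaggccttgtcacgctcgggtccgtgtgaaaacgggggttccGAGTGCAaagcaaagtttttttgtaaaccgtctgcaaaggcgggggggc

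MT2A had 8 matches in its window, 7 of them in the bases shown, and MT1X had 4. Of all 35116 promoter windows, 0.0199% held at least 8 matches and 0.601% at least 4. SLC30A1 had 2 matches, 1 of them in the bases shown, and 8.60% of all windows held at least 2. Among the members that met the count rule, 6 of 15 importer windows and 5 of 10 exporter windows had a match, where 29.6% of all windows did, with at most 1 match in an importer window and 2 in an exporter window. SLC30A2, below the rule, had 3. Windows were found for 20 of the 23 members, all but MT1F, SLC39A4 and SLC39A14. SLC39A10 had no match in its first window and 1 in the window of its other start, at bases 34 to 40 after it. That stretch is shown because SLC39A10 was the importer that rose, and it was picked after its values were seen.
SLC39A10, chr2:195657249-195657275, plus strand: ggagaggagaTGCACACggcactcgag

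Many matches did not go with reads. MT1H had 8 matches and 0 reads in all 6 libraries, and MT1B had 3 matches and 0 reads. MTF1 itself and SLC39A7 had no match. A match to these letters is a description and does not show binding.

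**Figure D3:**
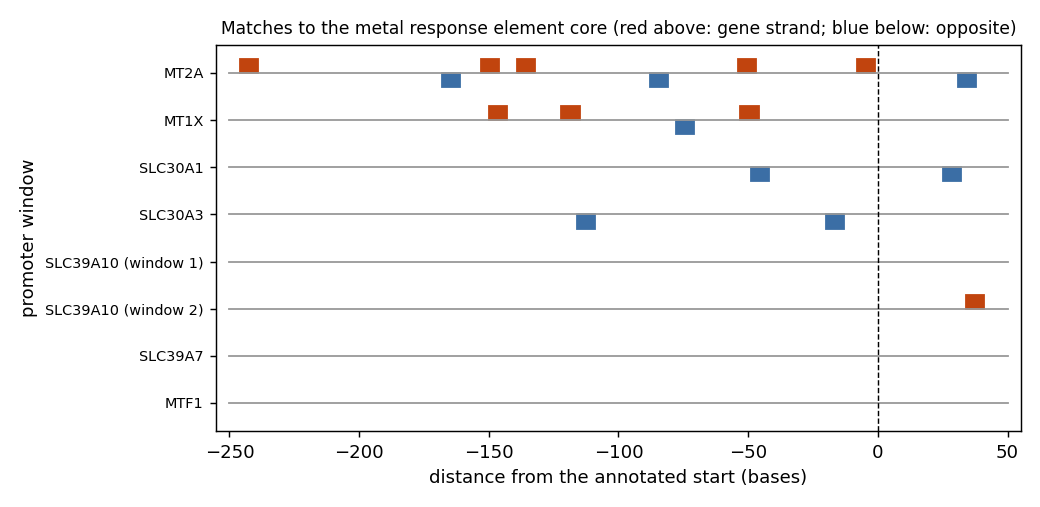
Matches to the metal response element core in promoter windows of 7 genes; the x axis is the distance in bases from the annotated start (dashed line), red boxes above the line are on the gene's strand and blue boxes below it on the other. MT2A has 8 boxes and MT1X 4, SLC30A1 and SLC30A3 have 2 each, SLC39A10 has 1 after the start of its second window, and SLC39A7 and MTF1 have none.

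MT2A is the most widely expressed metallothionein in human tissues. Its levels were 8.50, 7.88 and 8.32 CPM in co-culture libraries 1 to 3 and 16.01, 12.6 and 12.7 CPM in controls 1 to 3. Every co-culture library was below every control, and control 1 was the highest. The log2 fold change was -0.74 (SE 0.12, 95% interval -1.01 to -0.47, edgeR adjusted p 0.0101), from 166 to 331 reads per library. It lost the threshold with strand class as batch (-0.69, edgeR adjusted p 0.234), without co-culture library 1 or 2 (edgeR adjusted p 0.0600 and 0.0852) and without control 2 (edgeR adjusted p 0.0512). Its log2 fold change over the 15 settings ran from -0.80 to -0.62.

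MT1X, a member of the metallothionein 1 group, was at 2.75, 3.09 and 3.27 CPM in co-culture and at 8.89, 7.87 and 5.87 CPM in controls 1 to 3. The groups were again separate, with a wider spread among the controls than among the co-culture libraries. The log2 fold change was -1.30 (SE 0.18, 95% interval -1.70 to -0.89, edgeR adjusted p 0.00486), from 55 to 176 reads per library. It kept the threshold in 13 of 15 other settings, and lost it with the strand class (-1.45, edgeR adjusted p 0.136) and without control 2 (-1.26, edgeR adjusted p 0.0503). Co-culture library 1, which has the strand class of the controls, was the lowest of the 3 co-culture libraries for MT1X and the highest of them for MT2A.

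MT1F had 6, 6 and 21 reads in co-culture libraries 1 to 3 and 31, 21 and 23 reads in controls 1 to 3. That is 0.300, 0.285 and 0.586 CPM against 1.57, 1.09 and 0.882 CPM, with no overlap. It met the count rule through the controls, with 10 or more reads in all 3 of them and in 1 co-culture library, so its low level in co-culture is tied to its place in the set. The log2 fold change was -1.47 (SE 0.38), and the edgeR adjusted p of 0.0504 missed the threshold. It passed in 5 of 15 other settings. The edgeR adjusted p was 0.0465 without TMM scaling, 0.0322 without a low-count filter, 0.0368 without control 1 and 0.0325 without control 3. In limma-voom the adjusted p was 0.0485. In these settings 882 of 14582, 864 of 19187, 3069 of 14734, 735 of 14711 and 675 of 14582 tested genes passed. MT1F missed with the replicate block (edgeR adjusted p 0.121) and without co-culture library 1 or 2 (edgeR adjusted p 0.187 and 0.215), among others. With strand class as batch the log2 fold change of MT1F was -1.94. The log2 fold change was below 0 in all 15, from -1.97 to -1.19.

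The other metallothionein genes had few reads or none. MT1A, MT1E, MT1G, MT1H, MT1L and MT1M, all listed as members, had 0 reads in all 6 libraries, as did MT1B, MT4, MT1JP, MT1IP and MT1P2. MT1DP had at most 1 read, and MT3, the form typical of brain, had 0 reads in co-culture and 1, 1 and 5 in the controls. Multimapping reads enter no gene's count, so the sequence of these close relatives was compared, at read lengths set for this purpose since the study's is not given in the sources used here. Of all 75-base windows in the longest GENCODE 29 transcript, 98.3% of those of MT1E, 94.8% of MT1G, 97.1% of MT1H and 100% of MT1A, MT1F, MT1X and MT2A matched no gene elsewhere. With 50-base windows the shares were 89.4%, 85.7%, 89.8%, 94.2%, 96.4%, 100% and 95.1%. Only exact matches to annotated transcripts were sought, so the shares do not show how many reads were left out as multimapping. In the RefSeq order of the cluster on chromosome 16, MT2A is the third of 16 genes, MT1F the twelfth and MT1X the last. Of the genes between them, MT1CP was not analysed here and the others had at most 1 read per library.

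**Figure D4:**
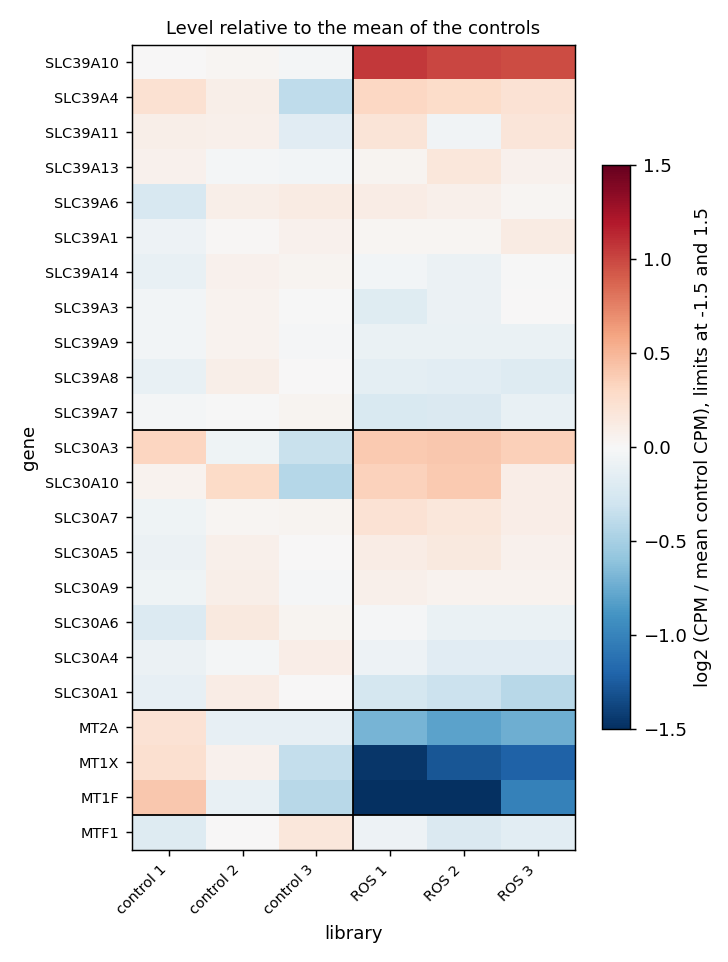
Level of each of the 23 members (rows, by role) in each library (columns, 3 controls then 3 ROS co-culture) as log2 of CPM over the mean control CPM, with colours limited at -1.5 and 1.5. The SLC39A10 row is red and the MT2A, MT1X and MT1F rows are blue in all 3 co-culture libraries, while other rows stay pale or vary within the groups.

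MTF1, the zinc sensor, stood at 44.6, 40.7 and 42.4 CPM in co-culture and 41.1, 47.3 and 52.8 CPM in controls 1 to 3. The groups overlapped, with control 1 next to the lowest of the 6. The log2 fold change was -0.15 (SE 0.09, 95% interval -0.35 to 0.05, edgeR adjusted p 0.349). MTF1 passed in 1 of 15 other settings, without control 1 (-0.24, edgeR adjusted p 0.0208), where 3069 of 14734 tested genes passed. Without control 3 the change was -0.06 (edgeR adjusted p 0.741), and with strand class as batch it was -0.08. These are transcript levels and say nothing of the protein's activity.

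A list of 22 other genes of zinc and copper handling was read beside the members, and 20 of them were tested. It holds metal transporters and channels, copper chaperones, zinc-responsive factors and metal reductases. There, 2 of the 20 passed, 1 in each direction, where 4.83% of all tested genes did (2.66% higher and 2.17% lower). The median log2 fold change of the list was -0.02, against a median of 0.00 over all tested genes. STEAP3, a metal reductase best known for iron uptake, rose from 48.6 ± 4.18 to 61.7 ± 2.00 CPM (SD, n = 3 each), by 0.34 on the log2 scale (SE 0.07, edgeR adjusted p 0.0287). SCO2, a copper chaperone of cytochrome c oxidase, fell from 22.1 ± 1.85 to 15.3 ± 1.65 CPM, or -0.52 on the log2 scale (SE 0.10, edgeR adjusted p 0.0205). Neither passed without any 1 of the 3 co-culture libraries, without control 2 or with the strand class. STEAP3 also missed with the replicate number as a block (0.35, edgeR adjusted p 0.0704). Without control 1 the list had 6 of 20 genes past the threshold, where 3069 of all 14734 tested genes passed.

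**Figure D5:**
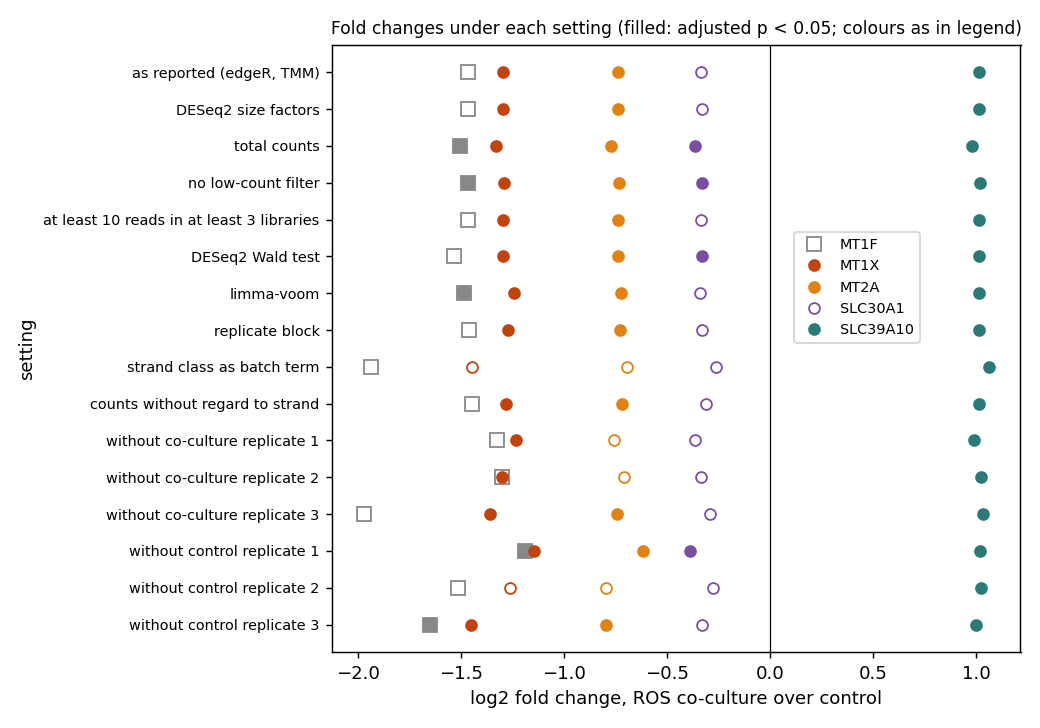
Log2 fold change (x axis) of SLC39A10, SLC30A1, MT2A, MT1X and MT1F under the reported fit and 15 other settings (y axis); filled symbols passed an adjusted p of 0.05, and open ones did not or, for MT1F with DESeq2, had none. SLC39A10 is filled throughout, between 0.98 and 1.06; MT1X and MT2A stay below 0 throughout and are open in some settings, and SLC30A1 is filled in 4.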

How the data were processed

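The authors deposited 1 table per library with raw counts of reads per gene, without regard to strand and for each strand. Per the submitters' processing notes, STAR 2.53a, FastQC and the build hg18 were used; annotation and counting options are not given in the sources used here. Per the labels' protocols the libraries were stranded mRNA libraries, and reverse-strand counts were analysed. Summary lines were left out of library sizes: multimapping reads made up 6.48% to 8.42%, reads in no gene 14.8% to 17.7%.

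Genes were filtered with filterByExpr (minimum count 10; 14582 tested) and scaled by TMM. Groups were compared over all genes with the robust quasi-likelihood test of edgeR 4.0.16 (R 4.3.3) and Benjamini-Hochberg adjustment at 0.05. The scripts were tested on simulated data. Chi-square per degree of freedom between replicates was 4.56 to 17.7, so none was a repeat of another that differed by counting error only. These values do not show whether the replicates were separate cultures. Alternatives used DESeq2 1.42.0, limma 3.58.1 and other settings. Levels per kilobase use the exons of GENCODE 29.

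Members and lists were chosen with earlier results of these data known. Full values are given for members past the threshold, for MTF1, and per role for the 2 with the highest level per kilobase and the 2 with the largest change among those without overlap.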

Additional observations from a re-analysis of the deposited data

How the results depend on the processing

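SLC39A10 kept its direction and threshold in all 15 alternatives. The number of genes past the threshold over the whole table was 704, and it was 164 with the replicate block, 29 with strand class as batch, and 65 (without control 2) to 3069 (without control 1) when 1 library was left out. Importers past the threshold numbered 1, 2 without TMM scaling and 1 to 3 with a library left out. Exporters numbered 0 of 8, 1 without TMM scaling, without a low-count filter or with DESeq2, and 0 to 3 with a library left out, where up to 9 were tested. Metallothioneins numbered 2, 3 without TMM scaling, without a low-count filter or with limma-voom, 0 with the strand class, and 0 (without control 2) to 3 (without control 1 or control 3) with a library left out. The list of other zinc and copper genes had 2, 1 with the replicate block, 0 with the strand class, 1 with counts without regard to strand, and 0 to 6 with a library left out. SCO2 was not among the 18 genes of that list tested with counts without regard to strand. The causes of the other differences in number were not tested. The summed metallothionein level ran from 48.4% to 56.4% of control over its alternatives.

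Same-numbered libraries had correlations of -0.04, -0.09 and -0.09 in their deviations from the group means, so they showed no shared shift by replicate number. With 3 libraries per group these values cannot show whether same-numbered samples were handled together. The block changed no call among the members. Metallothionein values rest on at most 331 reads per gene and library. MT1F had no adjusted p in DESeq2, which gave none for its low counts.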

Other observations

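SLC39A5 was the 1 transporter with more reads on the forward than on the reverse strand. It had 18, 22 and 31 forward reads in co-culture libraries 1 to 3 and 18, 24 and 30 in controls 1 to 3, against 2 to 8 reverse reads, so 82.2% of its reads lay on the strand opposite to the gene. The groups overlapped.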
